A study of Mus musculus with 2 samples.

Results

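The miR-17-92 and miR-106b-25 clusters are 2 groups of microRNA genes known from proliferating cells, and their 9 genes were followed here among 2202 microRNA genes counted in the mouse adrenal gland. The genes were chosen by name in the GENCODE M21 annotation: Mir17, Mir18, Mir19a, Mir20a, Mir19b-1 and Mir92-1, which lie in the host gene Mir17hg, and Mir106b, Mir93 and Mir25, which lie in Mcm7. The data are 2 microRNA sequencing libraries from total RNA of adrenal tissue of wild-type C57BL/6J mice, numbered as biological replicates 2 and 1, in 1 group with no treatment. The labels disagree on sex (female in one, not collected in another), leave age unknown, and give both tissue samples 1 donor identifier. They do not say whether separate animals were used, so the spread between the libraries may be technical.

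Each cluster is transcribed as part of a longer RNA, from which the enzymes Drosha and Dicer cut hairpins and then mature microRNAs of about the length that was sequenced. Bases 2 to 8 of the mature strand, the seed, pair with target messenger RNAs, so genes with the same seed are grouped as a family. The miR-17-92 cluster is known for activation by MYC and E2F factors and for repression of cell cycle and cell death regulators such as Cdkn1a and Bcl2l11. Mice that lack it die around birth. Mcm7, the host of the miR-106b-25 cluster, encodes a subunit of the helicase that opens DNA for replication. Another cluster of the same origin, miR-106a-363 on the X chromosome, has 6 genes: Mir106a, Mir18b, Mir20b, Mir19b-2, Mir92-2 and Mir363.

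The guide strands, the arms usually loaded into the silencing complex, fall into 4 seed groups and are shown because the seed and the copies among these sequences decide how the counts can be read. The sequences are those of RefSeq (GRCm38.p6), 5′ to 3′, with the seed in capitals. Mir17, Mir20a, Mir106b and Mir93 share the first seed, Mir18 has its own, Mir19a and Mir19b-1 share another, and Mir92-1 and Mir25 share the last.
mmu-miR-17-5p: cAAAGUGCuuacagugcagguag
mmu-miR-20a-5p: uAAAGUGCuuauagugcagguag
mmu-miR-106b-5p: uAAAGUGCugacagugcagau
mmu-miR-93-5p: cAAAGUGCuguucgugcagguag
mmu-miR-18a-5p: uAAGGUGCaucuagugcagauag
mmu-miR-19a-3p: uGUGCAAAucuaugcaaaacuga
mmu-miR-19b-3p: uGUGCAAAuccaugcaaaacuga
mmu-miR-92a-3p: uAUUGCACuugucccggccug
mmu-miR-25-3p: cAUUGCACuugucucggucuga

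Some of these strands differ by few bases. Counted from 1 at the 5′ end, miR-20a-5p differs from miR-17-5p at 2 positions, C1U and C12U, with the base of miR-17-5p given first. The strand of Mir19a differs from that of Mir19b-1 at 1 position, U11C. The strands of Mir92-1 and Mir25 differ at 3 of the 21 positions compared, U1C, C14U and C18U. The X-linked cluster repeats the same families.
mmu-miR-106a-5p: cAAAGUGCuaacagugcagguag
mmu-miR-20b-5p: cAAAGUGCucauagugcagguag
mmu-miR-18b-5p: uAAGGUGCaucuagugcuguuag
mmu-miR-363-3p: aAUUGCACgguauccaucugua

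The strand of Mir106a differs from that of Mir17 by U10A alone. Mir19b-2 and Mir92-2 carry exactly the guide strands of Mir19b-1 and Mir92-1. The tables hold reads with several alignments in a row of their own, apart from the genes, and this row made up 36.0% of the replicate 2 library and 35.9% of the replicate 1 library. The hairpins of these copies are shown with the run that both share in capitals, which a read must leave to be placed at 1 gene.
Mir92-1: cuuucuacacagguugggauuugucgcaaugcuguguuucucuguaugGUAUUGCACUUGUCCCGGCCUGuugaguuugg
Mir92-2: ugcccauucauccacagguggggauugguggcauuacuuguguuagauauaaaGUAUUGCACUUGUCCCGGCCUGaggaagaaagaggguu
Mir19b-1: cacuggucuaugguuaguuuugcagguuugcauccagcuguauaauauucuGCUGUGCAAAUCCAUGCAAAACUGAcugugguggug
Mir19b-2: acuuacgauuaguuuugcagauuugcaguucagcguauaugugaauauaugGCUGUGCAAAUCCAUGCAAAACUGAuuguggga

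The shared run of the Mir92 pair is 22 bases long and ends with the last base of the annotated guide. The shared run of the Mir19b pair is 25 bases long and also ends with the last base of the guide. The next base differs between the copies in both pairs, so a read that extends past either end of the shared run, or one from the other arm, can be placed at 1 gene. The guide strands of the other 7 members had no exact match in any other microRNA gene among 141767 GENCODE M21 transcripts and 1005 RefSeq hairpins. The rest of the genome was not searched.

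On the mm10 assembly the miR-17-92 hairpins lie on chromosome 14, plus strand, within an exon of the non-coding host transcript Mir17hg. They run from Mir17 (chr14:115043671-115043754) through Mir18 (chr14:115043851-115043946), Mir19a (chr14:115044000-115044081), Mir20a (chr14:115044157-115044263) and Mir19b-1 (chr14:115044305-115044391) to Mir92-1 (chr14:115044427-115044506). The last hairpin starts 756 nt after the first. The miR-106b-25 hairpins lie on chromosome 5, minus strand, in introns of protein-coding Mcm7 transcripts: Mir106b (chr5:138165737-138165818) comes first, then Mir93 (chr5:138165523-138165610) and Mir25 (chr5:138165321-138165404). Mir93 and Mir25 also lie in an exon of a retained-intron transcript of Mcm7.

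The libraries held 6570375 counts on the strand of microRNA genes in replicate 2 and 9137907 in replicate 1. Levels are counts divided by that total and scaled to 1000000 (CPM). A count of 0 allows up to 3 counts, or 0.457 CPM in replicate 2 and 0.328 CPM in replicate 1. Intervals and this limit cover counting error only. Neuroendocrine microRNAs (Mir375, Mir7b, Mir7-1 and Mir7-2) were all detected and summed to 51805 and 54062 CPM in replicates 2 and 1. The 3 kidney microRNAs listed (Mir192, Mir194-2 and Mir204) summed to 118 and 111 CPM, and liver Mir122 had 71.5 and 128 CPM. The 5 striated muscle microRNAs summed to 6.39 and 5.14 CPM, with Mir1b detected and Mir208a and Mir208b at 0 in both libraries. No microRNA that would define the adrenal gland alone was listed, so the tissue label was checked only against these lists.

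Together the 9 genes held 0.592% of the counts in replicate 2 and 0.559% in replicate 1. The miR-17-92 cluster summed to 3407 CPM in replicate 2 and 3208 CPM in replicate 1, or 3307 ± 141 CPM (SD, n = 2). The miR-106b-25 cluster, with 3 genes against 6, summed to 2516 and 2382 CPM, or 2449 ± 94.8 CPM. The ratio of the first sum to the second was 1.35 in both libraries, with exact 95% counting intervals of 1.33 to 1.38 in replicate 2 and 1.32 to 1.37 in replicate 1. Without Mir92-1 and Mir19b-1, whose guides have a copy on the X chromosome, the ratio was 0.872 in replicate 2 and 0.946 in replicate 1. The miR-106b-25 sum was then the larger in both, with all counts of Mir92-1 left out of the other sum. Reads of these 2 genes within a shared run are missing from every miR-17-92 sum given here. No miR-106b-25 guide had a copy among the sequences searched. The missing reads would add to the miR-17-92 sum, so 1.35 is the ratio of placeable reads alone. Tissue RNA was sequenced in bulk, so few cells with much of a microRNA and many cells with little cannot be told apart.

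**Figure D1:**
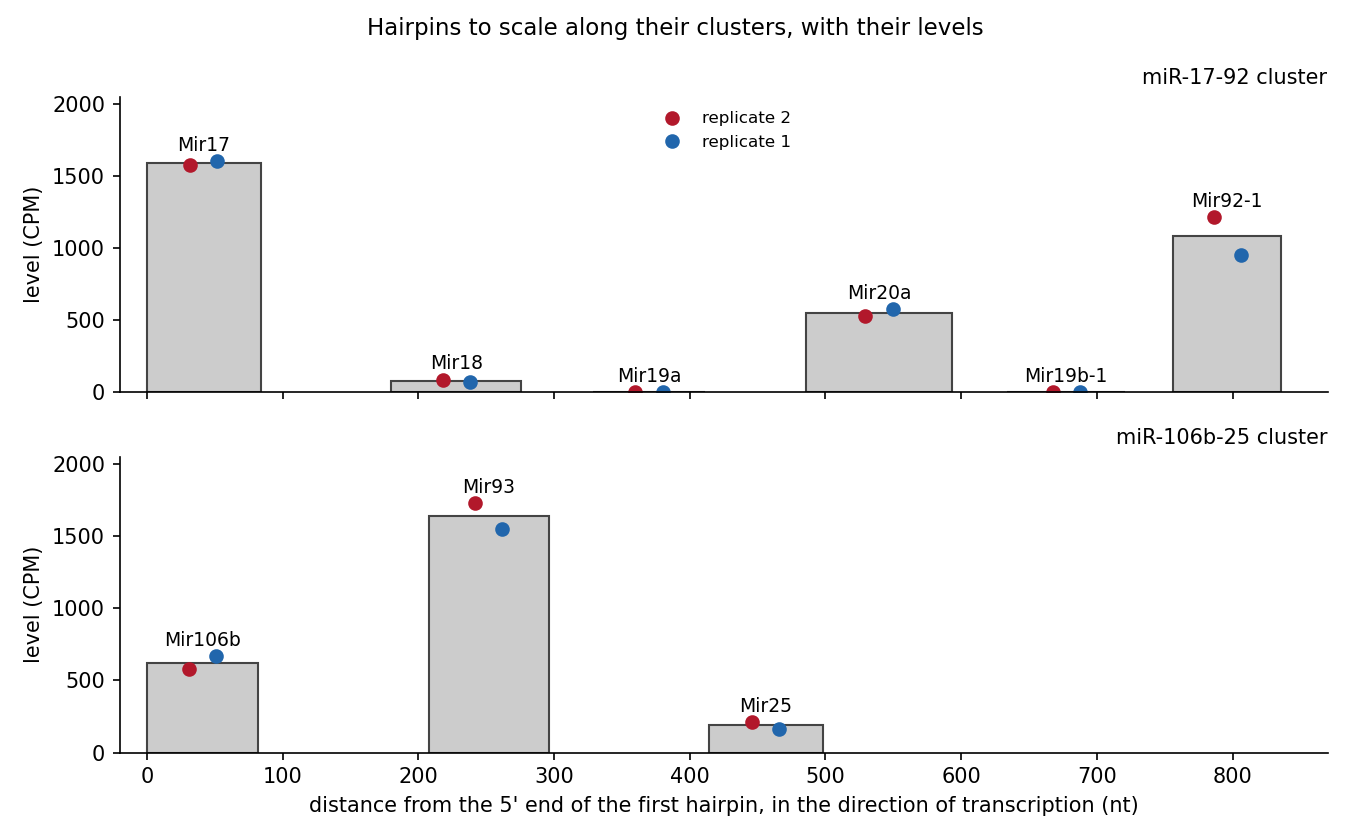
Hairpins of the miR-17-92 cluster (upper panel) and the miR-106b-25 cluster (lower panel), drawn to scale along the horizontal axis as distance in nt from the first hairpin in the direction of transcription. Bar height is the mean level in CPM and points are replicate 2 (red) and replicate 1 (blue). Mir17 at the start and Mir92-1 at the end have the most counts of the first cluster, Mir93 in the middle leads the second, and Mir19a and Mir19b-1 are too low to see.

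Mir17, the first gene of its cluster and the name-giver of the largest seed group, had 10365 counts (1578 CPM) in replicate 2 and 14658 counts (1604 CPM) in replicate 1. Its 2 CPM values had a coefficient of variation of 1.18%, the smallest of the members relative to total counts, whereas with TMM and DESeq2 scaling Mir93 differed less between the libraries. It ranked 60th of 2202 genes by level in replicate 2 and 56th in replicate 1. Mir92-1, the last gene and a member of the miR-25 family, had 7972 counts (1213 CPM) in replicate 2 and 8712 counts (953 CPM) in replicate 1. This is the part of its reads that could be placed on chromosome 14 rather than X. Mir20a, which differs from Mir17 in the strand by C1U and C12U, had 3460 counts (527 CPM) in replicate 2 and 5277 counts (577 CPM) in replicate 1. Its level averaged 552 ± 36.0 CPM, and Mir17 had 2.996 and 2.78 times its counts.

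Mir18, known in mice and rats for targeting the glucocorticoid receptor, was far lower. It had 585 counts (89.0 CPM) in replicate 2 and 658 counts (72.0 CPM) in replicate 1. Mir17, 180 nt upstream in the same host exon, had 17.7 and 22.3 times as many counts. Its strand has no exact copy in another microRNA gene among the sequences searched.

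The miR-19 genes, known as drivers of lymphoma in mice, were almost without counts. Mir19a had 0 counts in replicate 2, which allows up to 0.457 CPM, and 1 count in replicate 1. Mir19b-1 had 2 and 7 counts, and its X-linked copy Mir19b-2 had 0 and 3. For Mir19b-1 the copy removes reads that stay within the shared run, so its level cannot be read from the counts. For Mir19a no exact copy was found among the transcripts and hairpins searched, and it stood at 0 and 1 count beside flanking genes with 585 and 3460 counts in replicate 2 and 658 and 5277 in replicate 1. The miR-19 guides have a GC content of 34.8% (Mir19a) and 39.1% (Mir19b-1), against 39.1% for that of Mir20a and 57.1% for that of Mir92-1. The parts of the X-linked copy and of base composition in the miR-19 counts were not tested.

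In the miR-106b-25 cluster the middle gene led. Mir93, whose strand has the seed of miR-17, had 11346 counts (1727 CPM) in replicate 2 and 14139 counts (1547 CPM) in replicate 1. Its mean of 1637 ± 127 CPM was the highest of the 9 genes, with Mir92-1 counted by its placeable reads alone. Mir106b, also with the miR-17 seed, had 3783 counts (576 CPM) in replicate 2 and 6122 counts (670 CPM) in replicate 1. Mir25, which shares its seed with miR-92a and targets Bcl2l11, had 1404 counts (214 CPM) in replicate 2 and 1508 counts (165 CPM) in replicate 1. Mir93 had 2.999 and 2.31 times the counts of Mir106b, and 8.08 and 9.38 times those of Mir25. The order Mir93, Mir106b, Mir25 held in both libraries, with no overlap between the ranges of the genes.

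Over all 9 genes the order by mean CPM was Mir93, Mir17, Mir92-1, Mir106b, Mir20a, Mir25, Mir18, Mir19b-1, Mir19a. Mir93 and Mir17 did not differ beyond their spread: Mir93 was the higher in replicate 2 and Mir17 in replicate 1. The ranges of Mir106b and Mir20a also overlapped. Mir19b-1 and Mir19a, with 7 counts or fewer per library, have overlapping counting intervals and cannot be ordered. The ranges of other neighbours did not overlap, and the place of Mir92-1 is that of its placeable reads. With 2 values a gene an exact permutation test cannot go below p = 0.333, so no test of the order is given. A read covers a whole mature microRNA, so counts were not divided by length. Counts divided by hairpin length, 80 to 107 nt, gave the same order within each cluster and exchanged Mir93 and Mir17 between them.

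**Figure D2:**
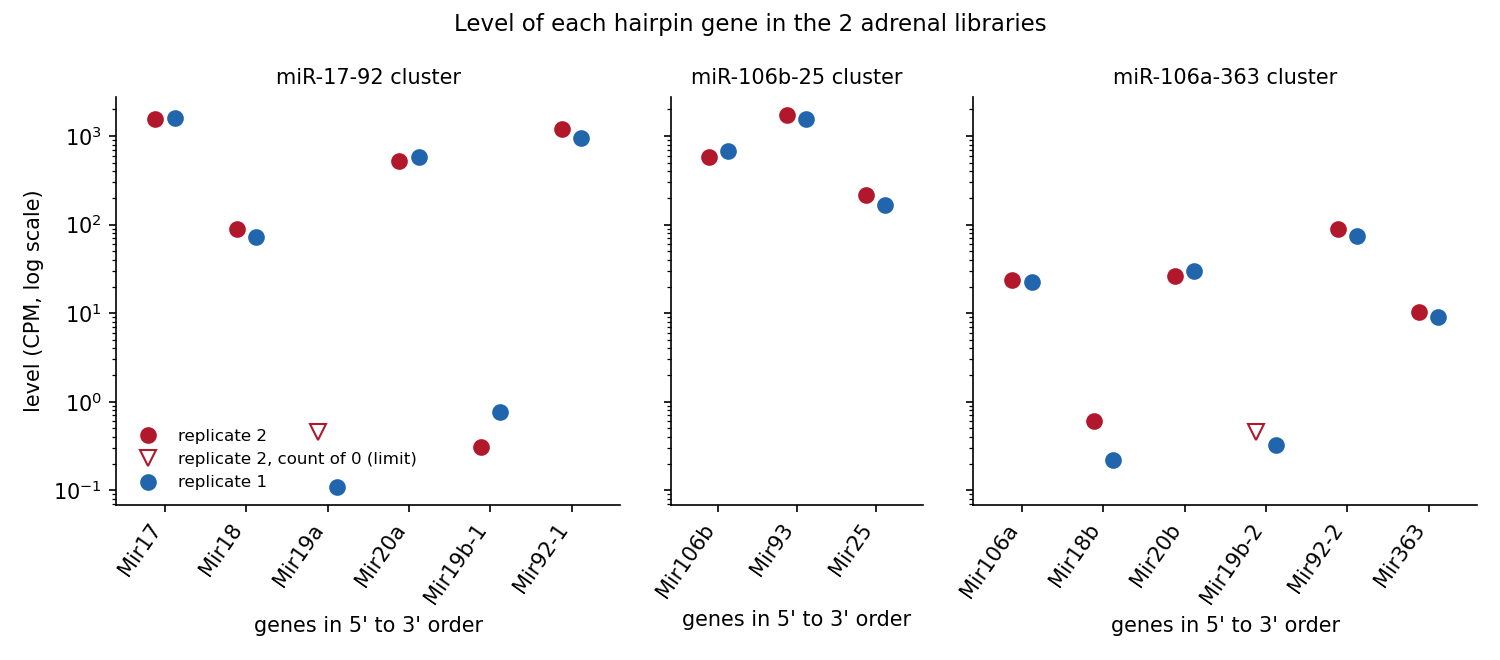
Level of each gene in CPM on a log axis for the 3 paralogous clusters, with genes in 5′ to 3′ order, replicate 2 in red and replicate 1 in blue. Open triangles mark a count of 0 in replicate 2 at the limit of 3 counts, 0.457 CPM. The miR-19 and miR-18b genes lie below 1 CPM, and Mir17, Mir92-1 and Mir93 lie near or above 1000 CPM.

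Levels were also summed by the seed of the guide strand. Mir92-1 and Mir19b-1 hold only the reads that could be placed apart from their copies. Counts were per hairpin gene and not split by arm, so reads of the other arm, with another seed, are in these sums. How many of the placed reads of Mir92-1 come from its guide cannot be read from these counts. The group of Mir17, Mir20a, Mir106b and Mir93 (seed AAAGUGC) summed to 4407 CPM in replicate 2 and 4399 CPM in replicate 1, which was 74.4% and 78.7% of the members' counts. The miR-25/92 group (AUUGCAC, Mir92-1 and Mir25) summed to 1427 and 1118 CPM, the miR-18 group (AAGGUGC) to 89.0 and 72.0 CPM, and the miR-19 group (GUGCAAA) to 0.304 and 0.875 CPM. The sum of the first group lay closer between the libraries than those of its 4 genes. Relative to total counts its log2 ratio of replicate 2 over replicate 1 was 0.0026 (95% counting interval -0.019 to 0.024), and with the TMM scaling used further on it was -0.095 (-0.12 to -0.073), so this nearness depends on the scaling.

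Outside the members, genes with the AAAGUGC and AAGGUGC seeds added little. Mir106a had 23.4 and 22.2 CPM and Mir20b 26.3 and 29.8 CPM in replicates 2 and 1, while Mir6383, also listed with the AAAGUGC seed, had no count in either library. Together they came to 50.9 ± 1.56 CPM, against 4403 ± 5.61 CPM for the 4 members. The AUUGCAC seed is also carried by Mir92-2 (88.9 and 74.2 CPM), Mir92b (58.6 and 61.3 CPM), Mir32 (27.7 and 43.1 CPM), Mir363 (10.2 and 8.97 CPM) and Mir367, an embryonic stem cell microRNA, which was at 0. These 5 genes summed to 186 ± 1.55 CPM, against 1273 ± 218 CPM for Mir92-1 and Mir25. Both sums leave out the reads within the run that Mir92-1 and Mir92-2 share. The only other gene with the miR-18 seed, Mir18b, had 4 and 2 counts. For the miR-19 seed the only other gene was Mir19b-2, with 0 and 3 counts, and its level cannot be read for the same reason.

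**Figure D3:**
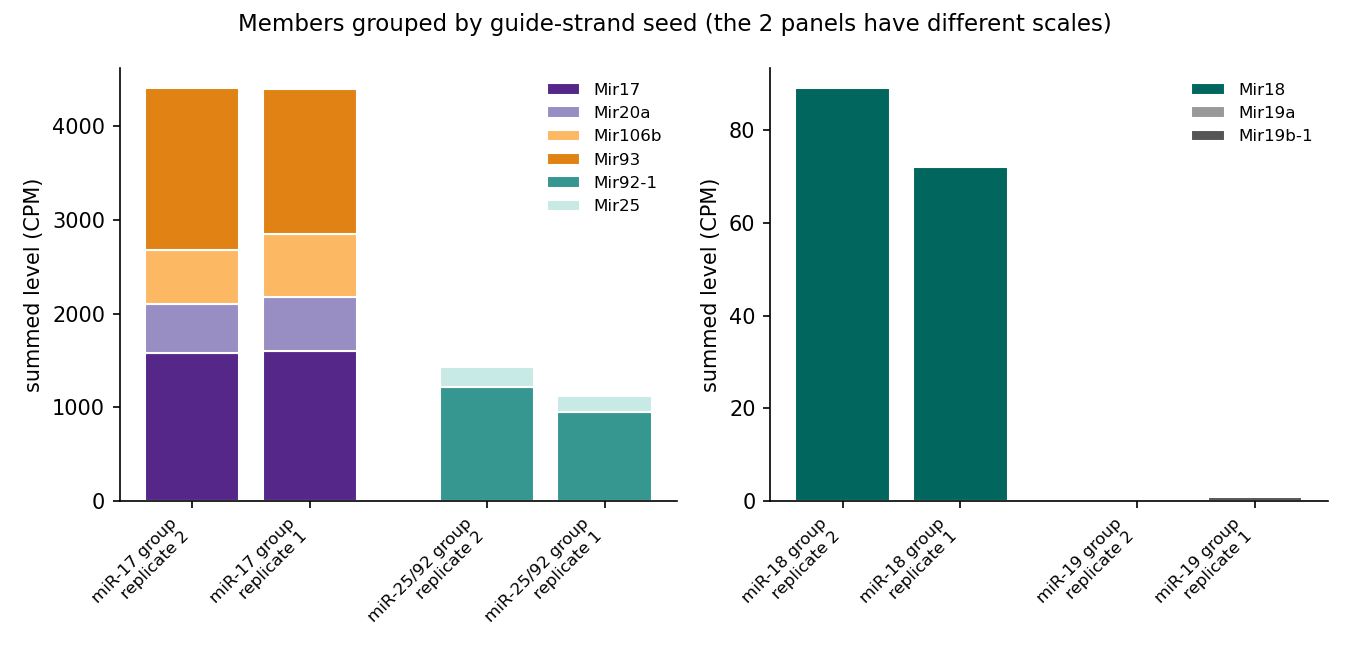
Summed level in CPM of the members by seed group in replicate 2 and replicate 1, stacked by gene. Groups follow the guide seed, and the counts of a gene are not split by arm. The left panel holds the miR-17 group, at 4407 and 4399 CPM, and the miR-25/92 group, at 1427 and 1118 CPM. The right panel, on a smaller scale, holds the miR-18 group at 89.0 and 72.0 CPM and the miR-19 group below 1 CPM.

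The members were set against the miR-106a-363 cluster gene by gene, since each library serves as its own scale. The 9 members had 39.6 times the counts of the X-linked cluster in replicate 2 (exact 95% counting interval 37.2 to 42.3) and 41.2 times in replicate 1 (38.9 to 43.6). Mir17 had 67.3 and 72.2 times the counts of Mir106a, and Mir20a had 20 and 19.4 times those of Mir20b. Mir92-1 had 13.7 and 12.8 times the counts of its exact copy Mir92-2, a ratio that covers only the reads that could be placed. For all 3 of these pairs the intervals of the libraries overlapped. Of the X-linked counts, Mir92-2 held 59.5% and 54.7% and Mir106a 15.7% and 16.4%. Since Mir92-1 and Mir92-2 each lack the reads within their shared run, which gene leads either cluster cannot be read from these counts. Strands that differ by 1 or 2 bases could take each other's reads if mismatches were allowed, and how many were allowed is not stated in the labels.

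Among other microRNA genes, those nearest in level to Mir17 over the 2 libraries, by distance in log2(CPM + 1), were Mir484 (distance 0.064, at 1590 and 1535 CPM), Mir195a (0.13) and Mir455 (0.19). For Mir93 they were Mir484 (0.12), Mir455 (0.14) and Mir195a (0.19). With 2 libraries this measures nearness of level alone.

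Within a cluster the members did not keep a fixed ratio in the libraries. Mir17 made up 46.3% of the miR-17-92 counts in replicate 2 (exact 95% counting interval 45.7 to 47.0) and 50.01% in replicate 1 (49.4 to 50.6). Mir92-1 made up 35.6% (35.0 to 36.2) and 29.7% (29.2 to 30.2), and Mir20a 15.5% (15.0 to 15.9) and 18.0% (17.6 to 18.4). Mir92-1 thus held more of its cluster in replicate 2, and Mir17 and Mir20a held less. Mir92-1 counts only its placeable reads, and a larger share of a gene lowers those of the others. Against Mir20a, Mir17 had the larger ratio in replicate 2 (2.996, against 2.78 in replicate 1). Against Mir18, Mir17 had the smaller ratio in replicate 2 (17.7, against 22.3 in replicate 1). Mir18 had 2.61% (2.41 to 2.83) and 2.24% (2.08 to 2.42), with overlapping intervals.

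In the Mcm7 cluster Mir93 made up 68.6% of the counts in replicate 2 (67.9 to 69.3) and 65.0% in replicate 1 (64.3 to 65.6). Mir106b made up 22.9% (22.2 to 23.5) and 28.1% (27.5 to 28.7), and Mir25 8.49% (8.07 to 8.93) and 6.93% (6.59 to 7.27). Of the 9 pairs within the clusters whose genes had at least 20 counts, the ratio that moved most was that of Mir106b to Mir25, the first and last hairpins, at 2.69 in replicate 2 (2.53 to 2.87) and 4.06 in replicate 1 (3.84 to 4.30). Among these pairs the intervals of the libraries stood apart for 5 of 6 pairs in miR-17-92 and 3 of 3 in miR-106b-25. The exception was Mir92-1 over Mir18, at 13.6 and 13.2. Across the clusters, Mir92-1 over Mir25, which share a seed, was 5.68 (5.36 to 6.01) and 5.78 (5.47 to 6.11). These shares need no scaling between libraries.

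**Figure D4:**
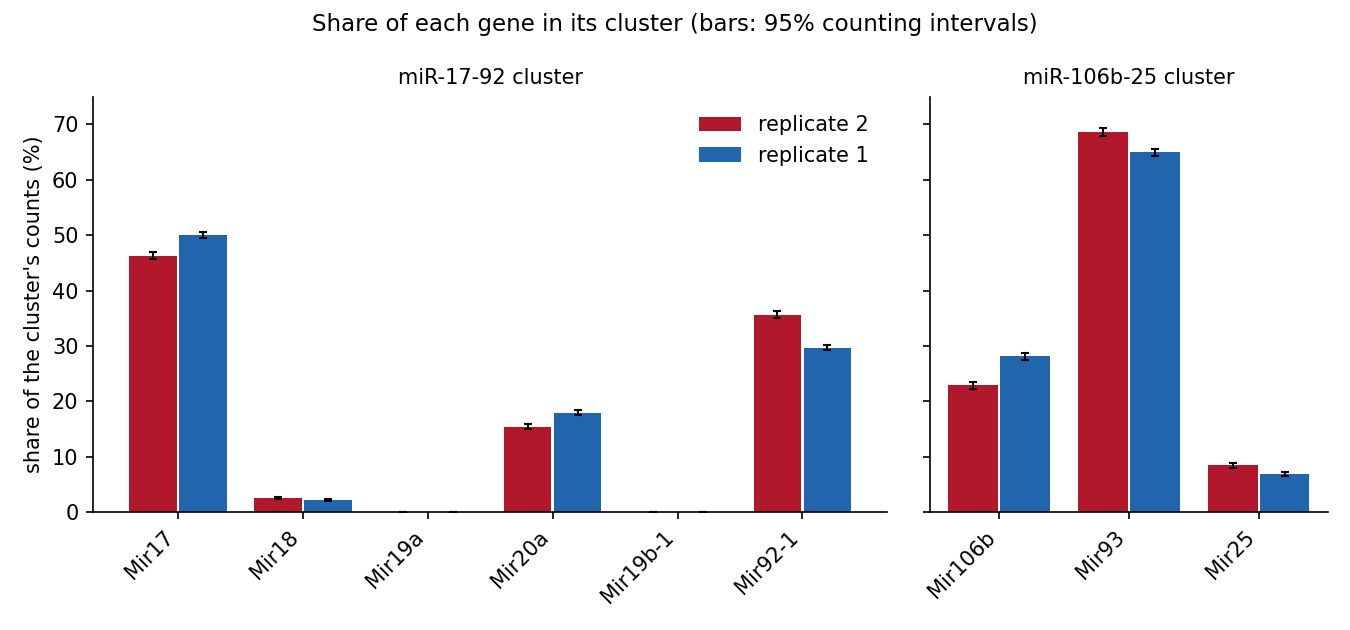
Share of each gene in the counts of its cluster, in percent, for replicate 2 (red) and replicate 1 (blue), with exact 95% counting intervals. Mir92-1, Mir93 and Mir25 hold a larger share in replicate 2, and Mir17, Mir20a and Mir106b in replicate 1, by more than counting error. Shares within a cluster depend on one another, and Mir92-1 counts only its placeable reads.

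The libraries were also compared gene by gene across the whole table, with an exact two-sided binomial test against TMM-scaled library sizes and Benjamini-Hochberg adjustment. This compares 2 libraries of the same group and knows counting error only. Of the 9 members, 7 had the 20 counts over both libraries that the test required, all but Mir19a and Mir19b-1. All 7 passed at an adjusted p under 0.05, where 56.1% of the 426 tested genes did, and 85.3% of the 184 tested genes at a mean of 100 CPM or more. With such a background the count is no result about the members. Higher in replicate 2 were 4 members (26.5% of all tested genes) and higher in replicate 1 were 3 (29.6%). None of the 7 differed by more than 1.5-fold, where 28.2% of all tested genes did. Relative to total counts, 6 of the 7 passed, against a background of 57% of tested genes (35.2% higher in replicate 2 and 21.8% higher in replicate 1).

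Mir25 had the largest log2 ratio of replicate 2 over replicate 1, 0.28 (95% counting interval 0.17 to 0.38, adjusted p = 8.76e-07 by the exact binomial test). Mir92-1 followed at 0.25 (0.21 to 0.29, exact binomial adjusted p = 3.38e-28), then Mir18 at 0.21 (0.045 to 0.37) and Mir93 at 0.061 (0.025 to 0.096). In the other direction Mir106b had -0.32 (-0.38 to -0.26, exact binomial adjusted p = 5.95e-26), Mir20a -0.23 (-0.29 to -0.17) and Mir17 -0.12 (-0.16 to -0.086). The largest of these, Mir106b, was 1.25-fold higher in replicate 1. The directions were not those of a whole seed group: Mir92-1 and Mir25 were higher in replicate 2, whereas Mir32, with the same seed, had -0.73 (adjusted p = 1.83e-08, exact binomial test), and Mir93 went the other way from Mir17, Mir20a and Mir106b. Relative to total counts Mir17 had a log2 ratio of -0.024 and did not pass (adjusted p = 0.293, exact binomial test).

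With TMM scaling the cluster sums differed less than any of their tested genes: the log2 ratio was -0.011 (95% counting interval -0.036 to 0.014) for miR-17-92 and -0.019 (-0.048 to 0.010) for miR-106b-25. Relative to total counts both were higher in replicate 2, at 0.087 (0.062 to 0.11) and 0.079 (0.050 to 0.11), and the miR-17-92 sum then differed more than Mir17 at -0.024. The median absolute log2 ratio of the 7 members was 0.23, the same as for the 184 tested genes at 100 CPM or more, and 0.30 over all tested genes. None of the 4 tested X-linked genes passed under TMM scaling, where 56.1% of the 426 tested genes did. Passing depends on the number of counts. Mir20b, with 173 and 272 counts, did not pass at -0.27 (adjusted p = 0.0843, exact binomial test). Mir17, with 10365 and 14658 counts, passed at -0.12. Under this scaling Mir92-2 had 0.16 (adjusted p = 0.0802, exact binomial test). Mir92-2 passed relative to total counts, at 0.26 (adjusted p = 0.00326, exact binomial test), and with DESeq2 size factors (adjusted p = 0.0400, exact binomial test).

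Markers of other cell types were compared in the same libraries. The erythroid list (Mir451a, Mir144 and Mir486, all 3 detected) summed to 295 CPM in replicate 2 and 144 CPM in replicate 1. Most of this was Mir451a, at 245 and 110 CPM. Mir451a and Mir486 were higher in replicate 2. Mir144, at 24.8 and 21.1 CPM, did not pass (adjusted p = 0.507, exact binomial test). Endothelial Mir126a had 54325 and 61677 CPM, and the fibroblast and smooth muscle list, with 3 of 4 genes detected, summed to 15018 and 18900 CPM. Most of that sum was Mir143, at 12700 and 15759 CPM. In this list 2 genes (Mir143 and Mir214) were higher in replicate 1. The other detected gene, Mir145a, was higher in replicate 2, at 1185 and 977 CPM. The 6 leukocyte genes in the tables, all detected, summed to 3559 and 3237 CPM, with 3 genes higher in each library. The part of these cell types in the members' differences was not tested.

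**Figure D5:**
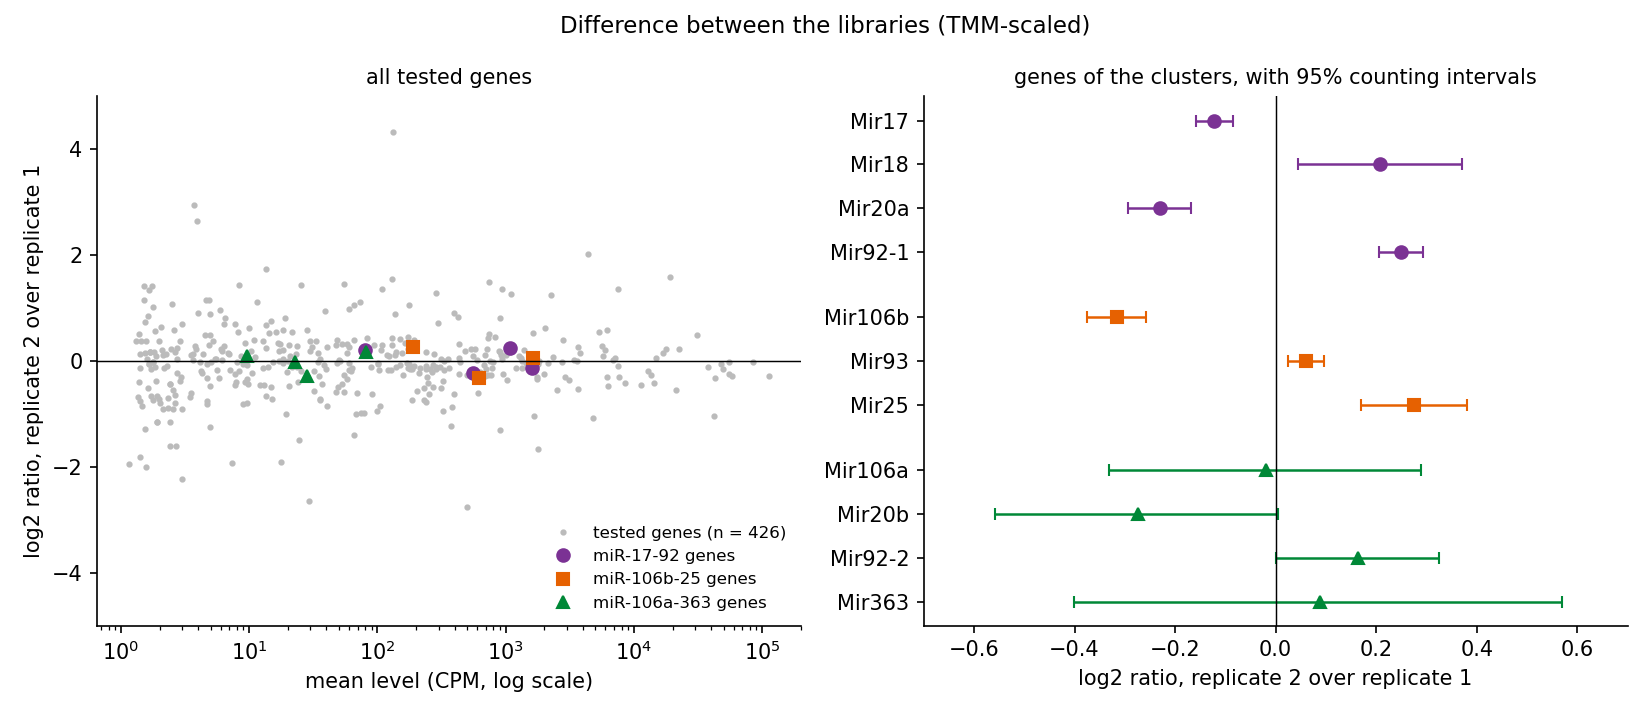
Left, log2 ratio of replicate 2 over replicate 1 (TMM-scaled) against mean level in CPM on a log axis for the 426 tested genes, with the genes of the 3 clusters in colour. Right, the same ratio for those genes with exact 95% counting intervals. The 7 tested members lie between -0.32 and 0.28, inside the scatter of genes of similar level.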

How the data were processed

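Per the description deposited with the tables, the authors used the mm10 assembly and GENCODE M21. Adapter trimming is named in the labels' protocols. No aligner or counter was named in the sources used here. The authors deposited raw read counts of 2202 genes per library in 3 columns without a header (either strand, the strand of the gene, the opposite strand, as read from the values). The second was used. The 4 rows that name no gene (unmapped, multiply aligned, outside genes, ambiguous) were left out of library sizes. They held 54.6% and 51.2% of the reads of replicates 2 and 1.

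All 2202 identifiers matched GENCODE M21, whose coordinates are those of mm10. RefSeq sequences were matched by symbol for the 9 members and 6 X-linked paralogues. Library sizes were scaled by TMM (edgeR 4.0.16, R 4.3.3). Genes with at least 20 counts over both libraries were tested with an exact binomial test (scipy 1.17.1), ratios had 0.5 counts added, and 95% intervals are Clopper-Pearson. A gene was called detected at 10 counts. The test was checked on simulated data that held counting error alone, so the check does not cover other variation between the libraries.

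The members and gene lists were chosen with earlier results of these data known. Named are all members and X-linked paralogues, and other genes with a member's seed. Of the latter, those under 10 CPM were to be given only as counts, and genes at 0 were named after their values were seen. Also named are the 3 genes nearest in level to the member of each cluster with the most placed counts. A search for copies was planned on the genome and was made on transcripts and hairpins instead. Alternatives were total-count and DESeq2 1.42.0 scaling, other library sizes, either-strand counts, no count filter, a pseudocount of 5, division by hairpin length, leaving out members with copies, and leaving out each library.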

Additional observations from a re-analysis of the deposited data

How the results depend on the processing

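Levels depend on the denominator and on the copies. With all reads of the table as library size, the cluster sums were 1556 CPM (miR-17-92) and 1152 CPM (miR-106b-25), and the seed groups 2074 (AAAGUGC), 37.8 (AAGGUGC) and 597 CPM (AUUGCAC). With either-strand counts the cluster sums were 3639 and 2695 CPM and the AAAGUGC group 4845 CPM. Without Mir92-1 and Mir19b-1 the miR-17-92 sum was 2223 CPM, its ratio to miR-106b-25 was 0.909, the AUUGCAC group had 189 CPM and the GUGCAAA group 0.055 CPM. The first and last follow from the denominator and from the genes left out. With either-strand counts the mean share of Mir17 in its cluster stayed at 48.2% and the ratio of the cluster sums at 1.35. The members thus kept their proportions, and the shift is one of the column total. Why that total differs was not tested. No log2 ratio of a member changed direction under total-count or DESeq2 scaling, without the count filter, with either-strand counts or with a pseudocount of 5. Mir93 did not pass with either-strand counts (log2 ratio 0.040, adjusted p = 0.0518, exact binomial test), nor Mir17 by total counts. Leaving out either library gives the values of the other. No paired analysis was possible because there is 1 group. Mir19a, Mir19b-1, Mir18b and Mir19b-2 have 7 counts or fewer per library, so ratios between the libraries were not tested for them.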

Other observations

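Counts on the strand opposite to the members were 1 in replicate 2, at Mir25, and 0 in replicate 1. None of the 9 hairpins overlaps a gene on the other strand in GENCODE M21.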
